A study of Mus musculus with 9 samples.

Results

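The genes described here make, sense, move, conjugate and export cholesterol. They were chosen by name, from a list of 35 genes, and each was read by its brightest probe set (mean of the 9 arrays) among those assigned to that gene alone. Of the 35, 31 were measured, out of 18193 measured genes; Acat2, Soat1, Sts and Nr1h2 were not analysed here. The epidermis came from 8-week-old mice of the hairless SKH1 background (5 backcross generations), all homozygous for a floxed Alox12b allele (Alox12b fl/fl, genotype p/p). Alox12b encodes the epidermal lipoxygenase that oxidises linoleate in barrier ceramides. The 5 inactivated mice (Alox12b fl/fl Cre, p/p +/Cre) also carried the tamoxifen-dependent Cre-ERT2 recombinase under the K14 promoter, which is active in basal keratinocytes and other stratified epithelia, and the 4 control littermates (p/p +/+) did not; the labels give the first group the phenotype diseased. Both groups received 3 intraperitoneal injections of 1 mg tamoxifen in sunflower seed oil, and tissue was taken at day 6, 1 Affymetrix expression array per mouse. Because only the inactivated mice had Cre, the loss of Alox12b and the activity of Cre cannot be told apart.

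Cholesterol is built from acetyl groups in a chain of enzymes: the mevalonate part makes isoprene units, farnesyl units are joined to squalene, and squalene is closed to a sterol that a further series of enzymes trims to cholesterol. Most of these genes are targets of SREBP2 (encoded by Srebf2), a membrane-bound transcription factor that Scap escorts to the Golgi when sterol is scarce and that Insig1 and Insig2 retain in the endoplasmic reticulum when sterol is plentiful. The liver X receptors (Nr1h2, Nr1h3) respond to oxidised sterols and drive export genes such as Abca1 and Abcg1. In epidermis, keratinocytes make most of their own cholesterol, which is one of the main lipids of the barrier together with ceramides and fatty acids, and convert part of it to cholesterol sulfate.

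All values are on a log2 scale, differences are inactivated minus control, and ± after a difference is the SE from limma. Higher, lower, rose and fell are used of genes with an adjusted p under 0.05 (limma, Benjamini-Hochberg over all 45037 probe sets). In the inactivated group most measured synthesis enzymes were higher. Of the measured uptake, transfer and export genes, Mylip, Apoe and Abca1 were lower and Abcg1 was higher. Of the 31 measured genes 14 rose and 5 fell, where over all 18193 genes 15.5% rose and 18.9% fell, 34.4% in either direction. The share of members that fell was thus no larger than that over all genes. Of the 17 measured synthesis enzymes 12 rose, 1 fell and 4 did not pass, with a median difference of 0.57 against a median of 0.03 over all genes. Differences of at least 2-fold were found in 4 members, Lss and Sult2b1 (higher; 2.43% of all genes) and Mylip and Apoe (lower; 3.34% of all genes). Nearly all members, 29 of 31, lay above the median level of all genes, and among the 9096 genes above that level 19.6% rose and 28.7% fell. The groups did not overlap in 18 members, 13 higher and 5 lower, and in 31.6% of all genes in either direction.

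Across the series, 63.4% of the variance lay on a first component that separated the groups, with inactivated replicate 5 at 25.3 and the other inactivated arrays at 44.9 to 55.8. Array medians were 4.34 to 4.42. The labels give no sex; Xist and Y-linked probe sets split the mice into 3 female and 2 male inactivated and 1 female and 3 male controls. The targeted gene, Alox12b, was read by 1 probe set at 9.50 to 10.17 in the inactivated group and 9.19 to 9.40 in the controls, without overlap, and was higher in the inactivated group by 0.61 ± 0.14 (adjusted p = 0.00694). The place of that probe set relative to the floxed part is not given in the sources used here, so it checks nothing about the deletion. Keratinocyte markers were abundant in every array, with 1 of 6 basal markers higher and 2 lower, and 1 of 6 suprabasal markers higher and none lower. Markers of some other cell types moved too. All 8 fibroblast, 6 of 9 macrophage, 5 of 5 Langerhans cell and 3 of 4 T cell markers were lower. Csf1r is counted in both the macrophage and the Langerhans cell list. All 5 of 5 melanocyte markers were higher. None of 6 adipocyte markers passed, and of 5 endothelium markers 1 was higher and none lower. Of 7 sebocyte markers 1 was higher and 1 lower. Over all genes 15.5% rose and 18.9% fell, and among genes above the median level 19.6% and 28.7%. In bulk tissue, fewer cells of a type and less RNA per cell cannot be told apart.

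In the mevalonate part, Pmvk, Mvd and Idi1 rose and Hmgcs1, Mvk and Fdps did not pass. Idi1, which isomerises the isoprene unit, read 10.69, 10.64, 10.50, 10.84 and 10.87 in inactivated replicates 1 to 5. It read 9.78, 9.80, 9.79 and 9.82 in control replicates 1 to 4. Every inactivated array thus lay above every control, and the difference was 0.91 ± 0.08 (1.88-fold, adjusted p = 3.60e-05); the second probe set of the gene gave 1.002 ± 0.099. Mvd, which decarboxylates the pathway's diphosphate, read 7.45, 7.97, 8.04, 8.05 and 7.71 in the inactivated arrays and 6.87, 6.92, 7.15 and 6.80 in the controls. The groups did not overlap, inactivated replicate 1 was closest to the controls, and Mvd rose by 0.91 ± 0.13 (adjusted p = 0.000596). Phosphomevalonate kinase, Pmvk, rose by 0.57 ± 0.08 (adjusted p = 0.000391), from 7.92 ± 0.05 (SD, n = 4) to 8.49 ± 0.12 (SD, n = 5).

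Hmgcs1 is the first measured enzyme of the mevalonate part in this set, after Acat2, which was not analysed, and is a classical target of SREBP2. It read 11.31, 11.54, 11.57, 11.58 and 11.45 in the inactivated arrays and 11.40, 11.43, 11.48 and 11.48 in the controls. The groups overlapped, inactivated replicate 1 lying below every control, and the difference of 0.04 ± 0.07 did not pass (adjusted p = 0.693). None of its 4 other probe sets passed either, with differences of 0.07 to 0.64, although the mean of the 5 probe sets did (0.21, adjusted p = 0.0435). The kinase Mvk differed by 0.24 ± 0.09 (adjusted p = 0.0748) and the farnesyl diphosphate synthase Fdps by 0.45 ± 0.17 (adjusted p = 0.0714). Without inactivated replicate 1 both passed, with 0.29 (adjusted p = 0.0287) and 0.56 (adjusted p = 0.0176).

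In the sterol part, 9 of 11 enzymes rose. Lanosterol synthase, Lss, which closes squalene epoxide to the first sterol, showed the largest rise of the pathway by the brightest probe sets. Lss read 8.43, 8.39, 8.92, 8.58 and 8.36 in the inactivated arrays and 7.35, 7.49, 7.43 and 7.21 in the controls. The lowest inactivated array was well above the highest control, and the difference was 1.17 ± 0.12 (2.24-fold, adjusted p = 7.00e-05). The other probe sets of Lss rose less, by 0.58 ± 0.13 and 0.54 ± 0.16, so the 2-fold size and the first rank rest on 1 probe set. As the mean of its probe sets Lss rose by 0.76, less than Idi1 (0.96), Nsdhl (0.88), Hsd17b7 (0.84), Mvd (0.83) and Msmo1 (0.81). Squalene epoxidase, Sqle, a rate-limiting step of this part, read 10.64, 10.96, 11.01, 10.87 and 10.64 in the inactivated arrays and 10.34, 10.31, 10.30 and 10.22 in the controls. The groups did not overlap and Sqle rose by 0.53 ± 0.09 (adjusted p = 0.00199).

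Nsdhl, which removes a carboxylated methyl group from the sterol ring, read 8.60, 9.05, 9.59, 9.21 and 9.28 in the inactivated arrays and 8.40, 8.37, 8.19 and 8.11 in the controls. The groups did not overlap and the difference was 0.88 ± 0.17 (adjusted p = 0.00294). Nsdhl and Ebp lie on chromosome X, and the sexes were unevenly spread over the groups; with sex in the model Nsdhl rose by 0.74 (adjusted p = 0.00338). Squalene synthase, Fdft1, rose by 0.66 ± 0.09, the methyl oxidase Msmo1 by 0.59 ± 0.06, the keto reductase Hsd17b7 by 0.65 ± 0.14 and the demethylase Cyp51 by 0.37 ± 0.09, each without overlap. All 4 probe sets of Hsd17b7 rose, by 0.65 to 0.94. The other probe sets of Cyp51 differed by 0.34 (adjusted p = 0.0859) and 0.19 (adjusted p = 0.216), with overlap, and did not pass. The isomerase Ebp rose by only 0.24 ± 0.08 (adjusted p = 0.0415), with overlap, and its call was lost when any single array other than inactivated replicate 1 was left out (adjusted p from 0.0583 to 0.100) and with sex in the model (adjusted p = 0.0683). With the replicate number as a block it was lost as well (adjusted p = 0.0998).

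Dhcr7, the reductase that finishes cholesterol, was the 1 synthesis enzyme that fell. It read 9.15, 9.51, 9.33, 9.42 and 9.43 in the inactivated arrays and 9.59, 9.61, 9.75 and 9.73 in the controls. The groups did not overlap, but the difference of -0.30 ± 0.08 (adjusted p = 0.0215) was lost without control replicate 3 (adjusted p = 0.0668) or control replicate 4 (adjusted p = 0.0643). Sc5d, the desaturase that acts before Dhcr7, rose by 0.65 ± 0.13 (adjusted p = 0.00423) on its brightest probe set, while a second probe set fell by 0.64 ± 0.19 (adjusted p = 0.0272) and the third read -0.22 ± 0.17. The direction of Sc5d therefore depends on the probe set. The sterol reductase Tm7sf2 differed by 0.14 ± 0.12 (adjusted p = 0.400).

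**Figure D1:**
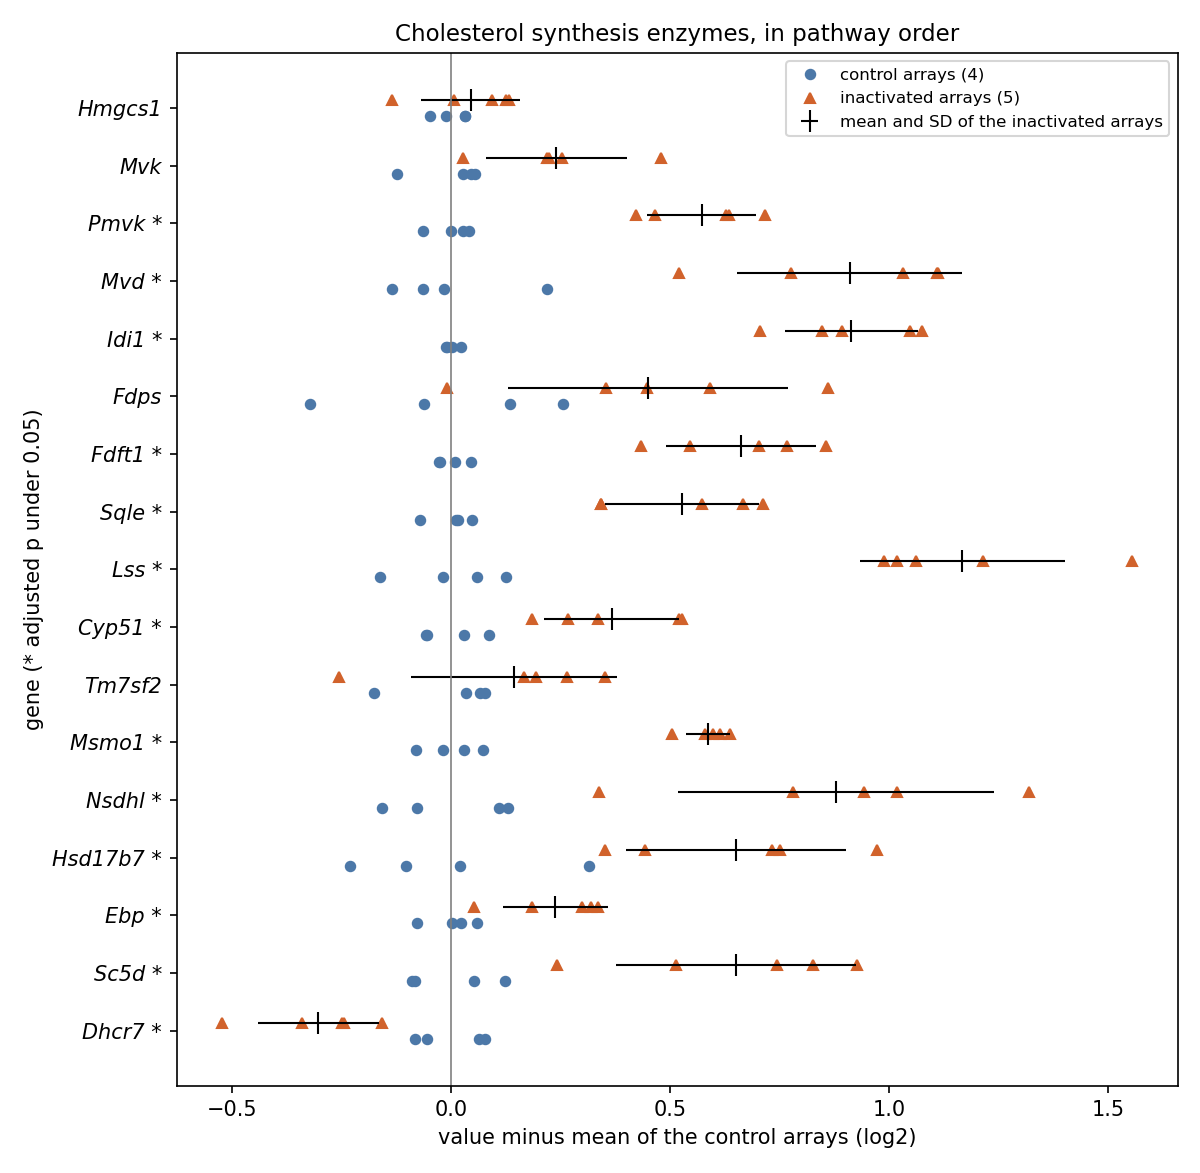
Each point is 1 array's log2 value minus the mean of the 4 control arrays (horizontal axis), for the 17 measured synthesis enzymes in pathway order from top to bottom; circles are controls, triangles inactivated arrays, and the black mark and bar are the mean and SD of the 5 inactivated arrays. Most enzymes from Pmvk to Sc5d sit to the right of the controls, Hmgcs1 straddles them and Dhcr7 sits to the left.

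The inactivated arrays differed among themselves in a shared way. In 13 of the 17 synthesis enzymes inactivated replicate 1 had the lowest value of the 5, and in 9 of the 17 inactivated replicate 3 had the highest. These counts were not made over all genes, so whether the order is particular to the enzymes was not tested. The median of the 17 enzymes against the control mean was 0.34, 0.60, 0.71, 0.64 and 0.45 in inactivated replicates 1 to 5 and -0.06 to 0.03 in the controls. Inactivated replicate 5, the array closest to the controls over all probe sets, was thus not the lowest here. The summary of 7 sebocyte markers, genes of the lipid-secreting gland cells, was 0.48, -1.27, -0.62, 0.09 and 0.34 on the same 5 arrays and -0.37 to 0.31 in the controls. Of these markers 1 was higher (Cidea), 1 lower (Scd3) and 5 did not pass, and their mean level was 6.36 to 7.77 in the inactivated group and 7.05 to 7.96 in the controls. The mean level of the fibroblast markers was 9.59 to 10.34 against 10.48 to 11.07. The median of the 6 suprabasal keratinocyte markers was -0.40 in inactivated replicate 1, the lowest of the 5, and -0.16 to 0.0004 in the others. The part of these cell types in the enzymes' rise was not tested.

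Promoters of these enzymes are shown because the enzymes moved together while single members did not. For 25 of the 31 measured genes RefSeq promoters of build GRCm38.p6 were at hand, 35 windows in all, and the 250 bases before each start were searched on both strands. The letters were CCAAT, the box bound by NF-Y, a factor that works beside SREBP2, and TCACNCCAC, a strict form of the sterol regulatory element; no matches of the 2 motifs overlapped in the members' windows. All 14 synthesis enzymes with a promoter held CCAAT in at least 1 window, as did 6 of the 11 other members. Over all 27025 genes the share was 37.5%, and over all 32851 windows 33.8%. The measured synthesis enzymes Fdps, Fdft1 and Sqle had no promoter at hand and were not searched. TCACNCCAC was found in 1 of the 25 members, Hmgcs1, against 1.22% of all genes. By windows it was 1 of the members' 35, against 1.05% of all windows. Below, matches to either motif are in capitals and all else in lower case, 5′ to 3′ on the gene's strand. Lss, Idi1 and Mvd are the synthesis enzymes with the largest rises by their brightest probe sets (an order that changes with other probe sets), Hmgcs1 holds both motifs and did not pass, Dhcr7 fell, and Mylip is the member that fell most.
Lss, chr10:76531355-76531604, + strand: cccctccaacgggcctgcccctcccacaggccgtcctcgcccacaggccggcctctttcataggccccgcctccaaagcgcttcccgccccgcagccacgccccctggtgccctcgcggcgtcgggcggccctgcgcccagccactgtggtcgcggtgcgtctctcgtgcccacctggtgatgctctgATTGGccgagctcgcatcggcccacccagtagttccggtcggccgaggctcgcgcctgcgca
Idi1, chr13:8885356-8885605, + strand: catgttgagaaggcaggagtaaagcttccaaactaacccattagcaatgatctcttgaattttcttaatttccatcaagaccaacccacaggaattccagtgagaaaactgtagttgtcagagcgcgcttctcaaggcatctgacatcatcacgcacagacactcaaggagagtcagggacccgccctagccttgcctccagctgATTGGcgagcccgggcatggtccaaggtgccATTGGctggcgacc
Mvd, chr8:122443423-122443672, - strand: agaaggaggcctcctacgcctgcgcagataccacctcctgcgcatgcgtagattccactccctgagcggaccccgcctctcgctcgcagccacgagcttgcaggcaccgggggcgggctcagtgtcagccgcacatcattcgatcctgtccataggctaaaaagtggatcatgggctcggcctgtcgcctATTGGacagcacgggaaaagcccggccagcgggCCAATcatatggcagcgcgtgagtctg
Hmgcs1, chr13:119690101-119690350, + strand: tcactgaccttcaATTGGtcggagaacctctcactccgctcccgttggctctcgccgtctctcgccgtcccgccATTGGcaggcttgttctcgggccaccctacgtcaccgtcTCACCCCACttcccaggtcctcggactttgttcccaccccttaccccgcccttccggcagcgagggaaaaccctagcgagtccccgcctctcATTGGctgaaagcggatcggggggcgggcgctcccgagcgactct
Dhcr7, chr7:143829964-143830213, + strand: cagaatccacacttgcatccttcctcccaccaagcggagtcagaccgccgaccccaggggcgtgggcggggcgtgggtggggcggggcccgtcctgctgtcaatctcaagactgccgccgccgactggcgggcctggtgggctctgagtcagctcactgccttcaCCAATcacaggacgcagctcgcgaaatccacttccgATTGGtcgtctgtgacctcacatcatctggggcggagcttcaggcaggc
Mylip, chr13:45389492-45389741, + strand: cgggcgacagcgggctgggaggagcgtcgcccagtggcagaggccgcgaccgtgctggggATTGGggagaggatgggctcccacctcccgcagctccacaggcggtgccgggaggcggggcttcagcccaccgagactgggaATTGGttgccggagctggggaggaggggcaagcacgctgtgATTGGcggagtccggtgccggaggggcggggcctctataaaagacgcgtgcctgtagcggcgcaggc
CCAAT lay 62 bases before the start in Lss, 45 and 14 bases before it in Idi1, and 60 and 27 bases before it in Mvd, counted from the first base of the match on either strand. Hmgcs1 held it 3 times, 237, 176 and 45 bases before the start, with the sterol element at 137. Of the 3 annotated Dhcr7 starts only the one shown held CCAAT, at 85 and 49 bases. Mylip held it at 190, 108 and 67 bases, so the letters were present in members that rose, in members that did not pass and in members that fell.

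Of the 4 members of the set that control SREBP2, 1 fell and 3 did not pass, where 18.9% of all genes fell. The proteases that release SREBPs from the Golgi membrane lie outside the set and were both lower, as described in the closing section. Srebf2 itself read 8.79, 9.02, 9.22, 8.87 and 8.89 in the inactivated arrays and 8.78, 8.82, 8.79 and 8.71 in the controls. The groups overlapped and the difference of 0.18 ± 0.09 did not pass (adjusted p = 0.159); its other probe set read -0.12 ± 0.09. Insig1, both a brake on SREBP2 and one of its targets, read 6.95, 7.61, 7.69, 7.86 and 7.88 in the inactivated arrays and 7.27, 7.49, 7.61 and 7.45 in the controls. Inactivated replicate 1 was below every control and the other 4 arrays were level with the highest control or above it. The difference was 0.14 ± 0.17 (adjusted p = 0.570), and 0.31 without that array (adjusted p = 0.0409).

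Insig2, the second brake, which is less dependent on SREBP2, read 8.69, 8.82, 8.43, 8.82 and 8.95 in the inactivated arrays and 9.20, 9.38, 9.40 and 9.28 in the controls. All inactivated arrays were lower, and it fell by 0.57 ± 0.10 (adjusted p = 0.00233). Of its 2 other probe sets 1 fell as well (-0.41 ± 0.12, adjusted p = 0.0308) and 1 did not pass (-0.30 ± 0.11, adjusted p = 0.0627). The escort Scap differed by 0.13 ± 0.06 (adjusted p = 0.164).

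Among genes of uptake and transfer inside the cell, Mylip changed most. Mylip, a ubiquitin ligase that marks lipoprotein receptors for breakdown, read 7.81, 7.93, 7.29, 8.32 and 7.98 in the inactivated arrays and 9.31, 9.10, 9.25 and 9.31 in the controls. No array of one group came near the other, and it fell by 1.38 ± 0.17 (2.60-fold lower, adjusted p = 0.000196), the largest fall of the set. Stard4, a carrier of cholesterol between membranes, read 7.81, 8.39, 8.48, 8.40 and 8.30 in the inactivated arrays and 8.12, 8.21, 8.16 and 8.10 in the controls. As for Insig1, inactivated replicate 1 was below every control and the other 4 above them. The difference was 0.13 ± 0.12 (adjusted p = 0.471), and 0.24 without replicate 1 (adjusted p = 0.0260). A further Stard4 probe set rose by 0.93 ± 0.13 (adjusted p = 0.000534). On it inactivated replicate 1 read 7.80, above every control (7.27 to 7.39), so its place below the controls holds for the brightest probe set. The third probe set differed by 0.20 ± 0.15 and did not pass, while the mean of the probe sets did. Npc1 and Npc2, which carry cholesterol out of lysosomes, differed by -0.12 ± 0.08 and -0.004 ± 0.104 and did not pass.

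Sult2b1, the sulfotransferase that makes cholesterol sulfate in the upper epidermis, rose. It read 11.09, 11.04, 10.82, 10.68 and 10.57 in the inactivated arrays and 9.75, 9.80, 9.69 and 9.70 in the controls. The groups were far apart, with a difference of 1.11 ± 0.11 (2.15-fold, adjusted p = 5.65e-05). Inactivated replicate 1, lowest in most synthesis enzymes, was highest here. Lcat, the plasma enzyme that esterifies cholesterol, was dim, at 4.07 ± 0.04 (SD, n = 5) and 3.99 ± 0.17 (SD, n = 4), and did not pass.

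The export genes went both ways. Apoe, the lipoprotein that accepts exported cholesterol, read 10.71, 10.03, 10.61, 10.80 and 10.66 in the inactivated arrays and 11.73, 11.76, 11.78 and 11.74 in the controls. Every inactivated array was lower, inactivated replicate 2 by most, and Apoe fell by 1.19 ± 0.14 (2.28-fold lower, adjusted p = 0.000153). Abca1, the transporter that loads cholesterol onto apolipoproteins, read 9.47, 8.60, 9.31, 9.50 and 9.32 in the inactivated arrays and 9.69, 9.75, 9.80 and 9.84 in the controls. The groups did not overlap and it fell by 0.53 ± 0.16 (adjusted p = 0.0323); without inactivated replicate 2, its lowest array, the difference was -0.37 (adjusted p = 0.00604). The Abca1 call was lost without any 1 of the 4 controls (adjusted p up to 0.0822).

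Abcg1, a transporter that passes cholesterol to lipoprotein particles, moved the other way. It read 8.73, 8.48, 8.41, 8.68 and 8.18 in the inactivated arrays and 7.83, 7.65, 7.75 and 8.02 in the controls. Without overlap it rose by 0.68 ± 0.12 (adjusted p = 0.00188), while its other probe set read 0.20 ± 0.20. The receptor Nr1h3, read at 3.18 to 3.57 over all arrays, was among the dimmest members and differed by -0.05 ± 0.08. Macrophages also express Apoe, Abca1 and Abcg1. Of 9 macrophage markers 6 were lower and none higher, and their mean level was 8.27 to 9.08 in the inactivated group and 9.16 to 9.44 in the controls. Their median against the control mean was -0.17, -1.09, -0.66, -0.30 and -0.70 in inactivated replicates 1 to 5, lowest in replicate 2 as for Apoe and Abca1. Replicate 2 was also the lowest inactivated array for the fibroblast (-1.41), T cell (-1.45), sebocyte (-1.27), endothelium (-0.29), adipocyte (-0.19) and basal keratinocyte (-0.11) markers. The part of these cell types in the differences was not tested.

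**Figure D2:**
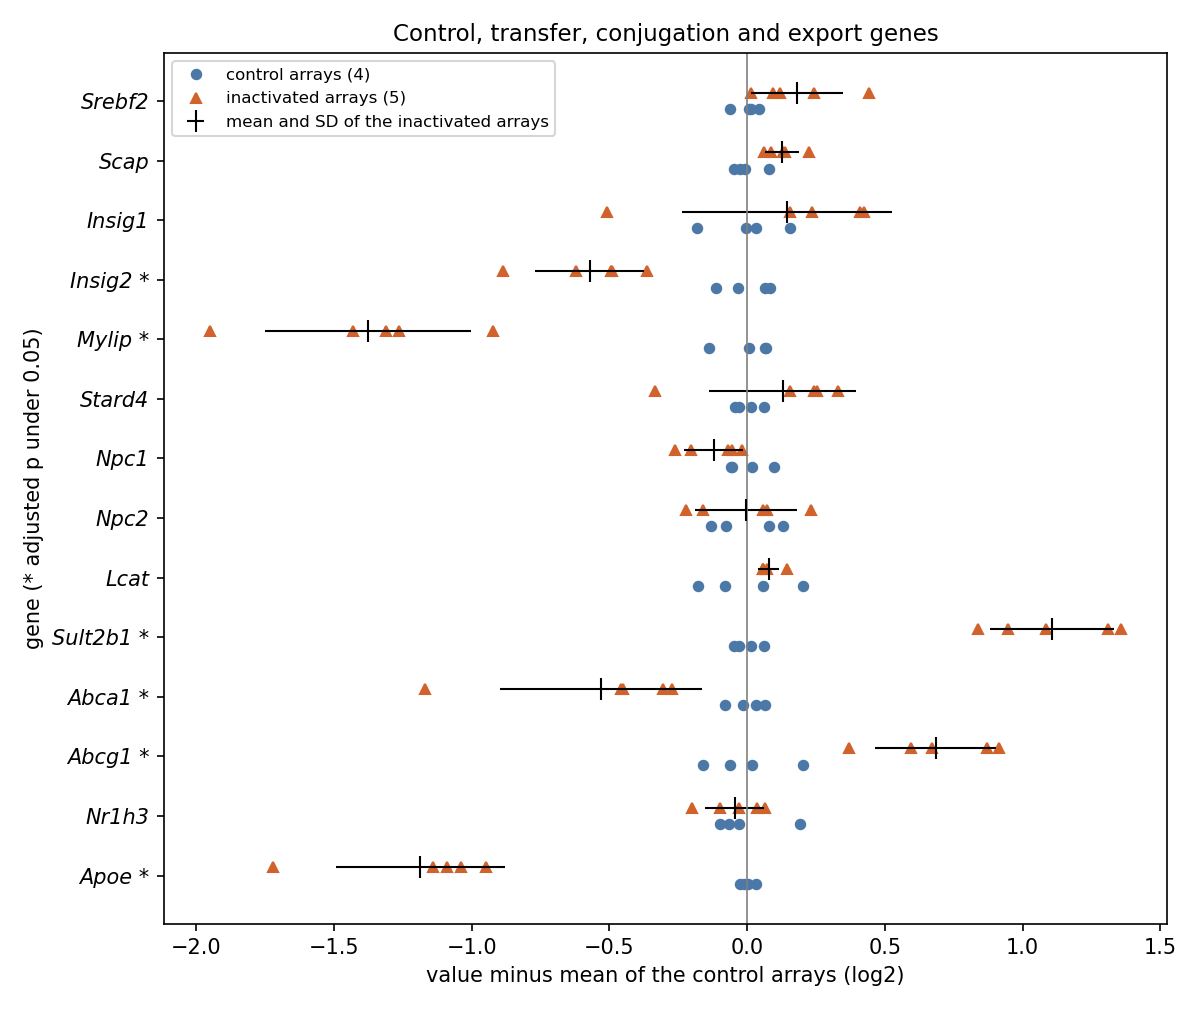
Each point is 1 array's log2 value minus the mean of the 4 control arrays (horizontal axis), for the 14 measured genes of SREBP2 control, transfer, conjugation and export; circles are controls, triangles inactivated arrays, and the black mark and bar are the mean and SD of the 5 inactivated arrays. Sult2b1 and Abcg1 lie to the right of the controls, Insig2, Mylip, Abca1 and Apoe to the left, and the lone low triangles of Insig1 and Stard4 are both inactivated replicate 1.

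Of 10 genes listed as targets of the liver X receptors, 5 of them members described above, 2 were higher (Abcg1 and the phospholipid acyltransferase Lpcat3), 6 lower and 2 did not pass, with a median of -0.56. Over all genes 15.5% rose and 18.9% fell, and among genes above the median level, where all of these but Nr1h3 lie, 19.6% and 28.7%. The lower ones outside the set, named after their values were seen, were the lipid transfer protein Pltp (-1.34 ± 0.22), the apolipoprotein Apoc1 (-0.67 ± 0.07) and Srebf1 (-0.58 ± 0.13), which encodes the SREBP of fatty acid synthesis. Pltp and Apoc1 are also expressed in macrophages.

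**Figure D3:**
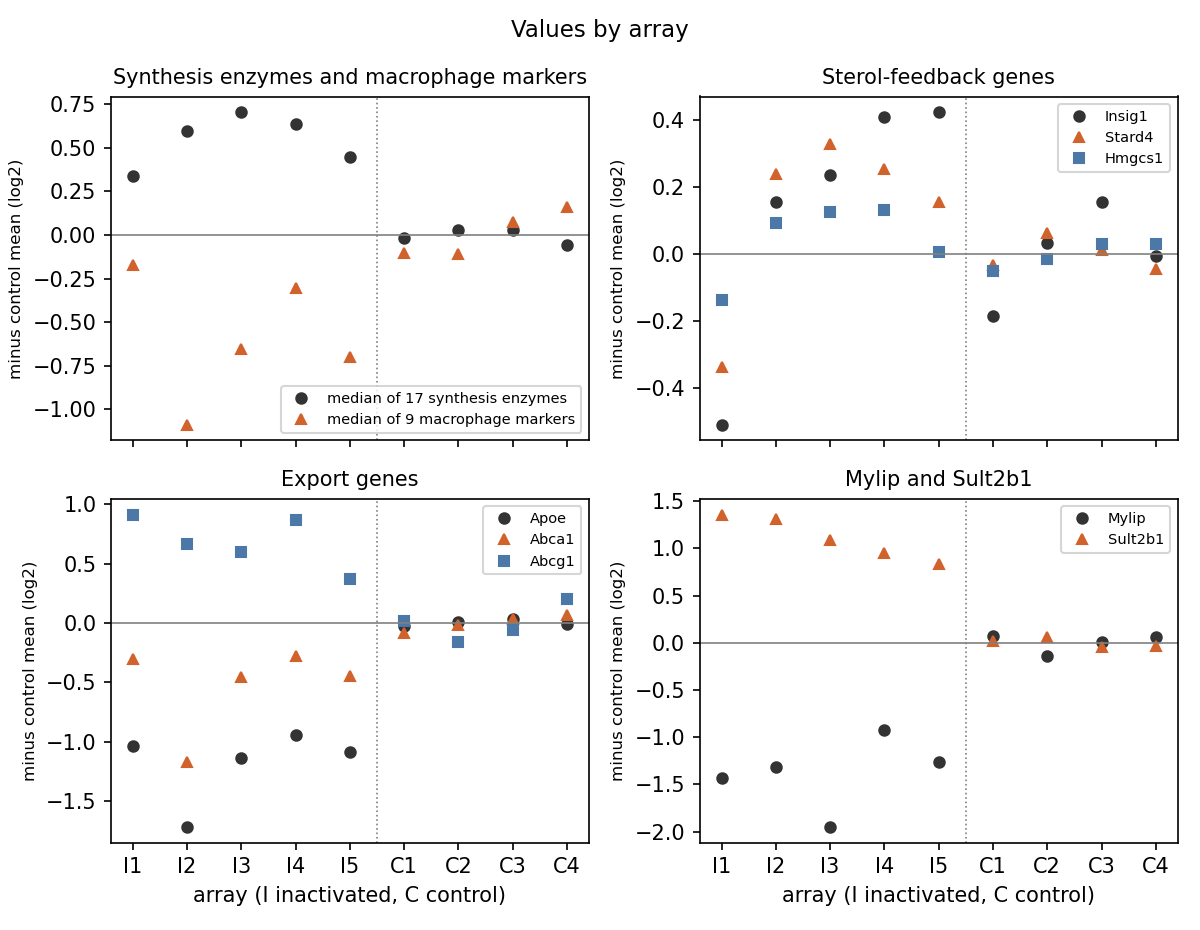
Log2 values minus the control mean (vertical axis) are shown for each of the 9 arrays (horizontal axis; I inactivated, C control), as list medians in the upper left panel and as single genes in the others. The enzyme median is above the controls on all 5 inactivated arrays, I1 is low for Insig1, Stard4 and Hmgcs1, and I2 is low for Apoe, Abca1 and the macrophage markers, as it is for markers of several other cell types not plotted.

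For 18 of the 31 genes more than 1 probe set was available. In 15 of the 18 all probe sets had the same sign, and the exceptions were Npc2, Sc5d and Srebf2. Only Sc5d had probe sets that passed in both directions. In Fdft1 the probe sets that rose, by 0.66 and 0.82, were the bright ones, and the others, at control means of 3.88 and 3.57, did not pass.

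**Figure D4:**
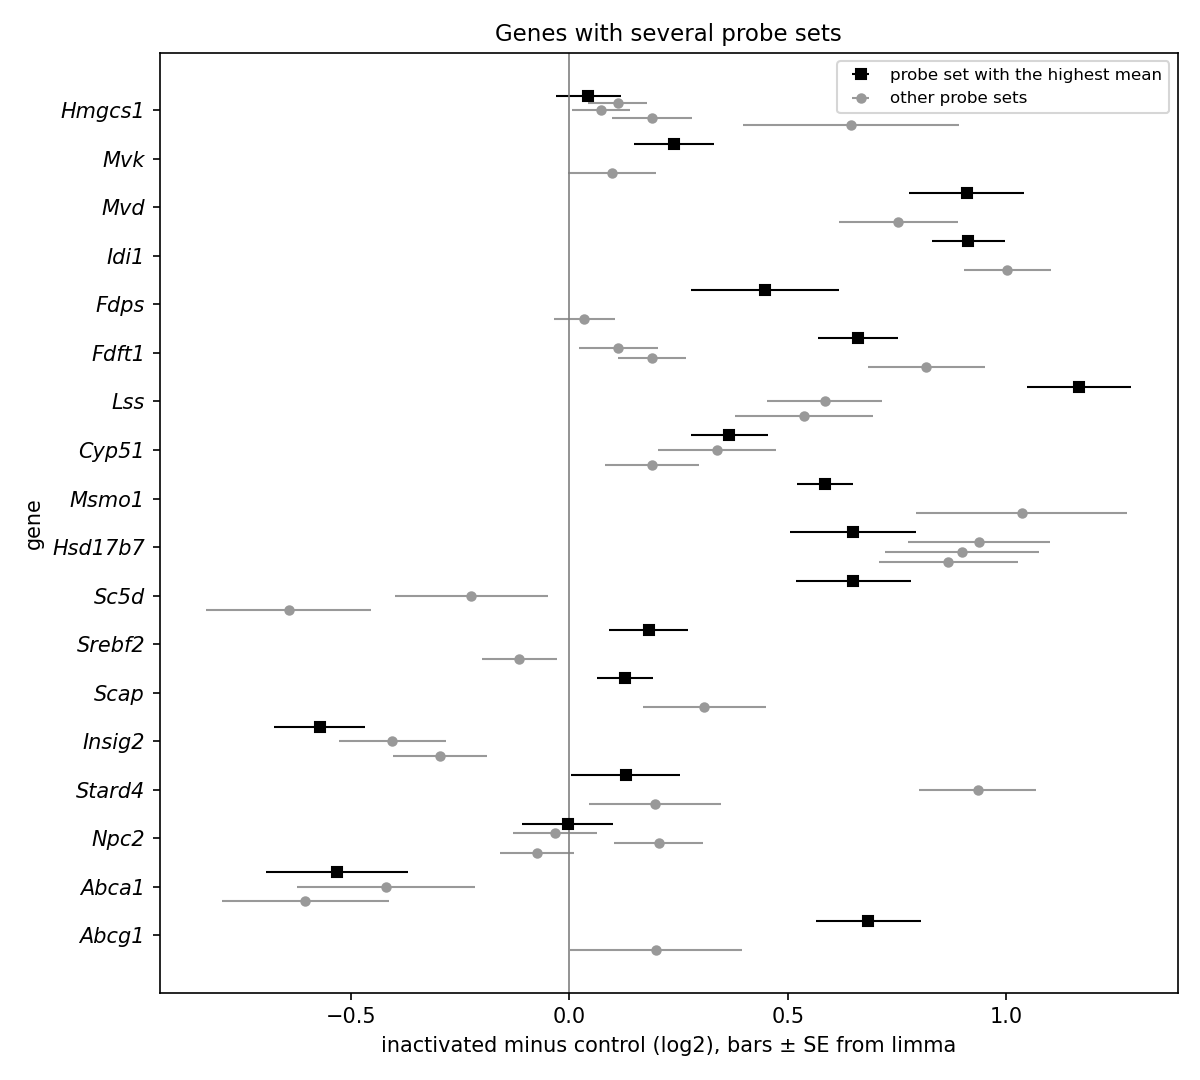
Differences in log2 (horizontal axis) with bars of ± SE from limma are shown for every probe set of the 18 genes with more than 1; black squares are the probe sets used in the text and grey circles the others. Mvd, Idi1, Lss, Msmo1 and Hsd17b7 lie to the right throughout, Insig2 and Abca1 to the left, and Sc5d falls on both sides of 0.

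A wider list of 44 sterol and isoprenoid genes, 39 of them measured, was called in both directions. In it 8 rose, 13 fell and 18 did not pass, with a median of -0.13. These counts are near the background of 19.6% higher and 28.7% lower among genes above the median level (15.5% and 18.9% of all genes). Of the 6 with the lowest adjusted p, 3 rose and 3 fell. The oxysterol hydroxylase Cyp7b1 rose by 2.41 ± 0.11 (adjusted p = 5.11e-07), from 5.25 to 7.66. The sterol-regulated membrane protein Tmem97 rose by 0.80 ± 0.08 and the oxysterol-binding protein relative Osbpl2 by 0.62 ± 0.09. The caveolar protein Cav1 fell by 1.27 ± 0.10, Apoc1 fell by 0.67 ± 0.07 and the oxysterol hydroxylase Cyp39a1 fell by 1.81 ± 0.24.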

How the data were processed

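Total RNA of scratched-off epidermis from 5 inactivated and 4 control mice was labelled and hybridised to 1 array per mouse, per the labels' protocols. The authors deposited 1 table of log2 values for 45037 probe sets; the submitters' processing notes name affy without a version, and the normalisation is not given in the sources used here. The log base was read from the range of the values. The platform annotation gave 34945 probe sets 1 gene symbol, 932 several and 9160 none; no symbol needed updating against RefSeq. Groups were compared with limma 3.58.1 in R 4.3.3 (lmFit and eBayes, two-sided, 7 residual degrees of freedom, no covariates, no filter), and the steps were tested on simulated data. The number of arrays, not read depth, limits the precision, and values near background or the top of the range are compressed.

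Members and lists were chosen with earlier results of these data known. Every measured member is described. Per-array values are given for members at least 2-fold different and for Srebf2, Insig1, Hmgcs1, Sqle, Abca1, Abcg1, Sult2b1, Apoe and Stard4, listed as having a controlling role. The 6 genes of the wider sterol list with the lowest adjusted p are named; Lpcat3, Pltp, Srebf1 and those first named in the closing section were chosen after their values were seen. The per-array values of Idi1, Mvd, Nsdhl, Insig2 and Dhcr7 were added after they were seen. The labels call the mice biological replicates. Same-numbered arrays did not deviate together (correlations of -0.268 to 0.078), so numbers were not taken as pairs. Alternatives were 3 other scalings, 2 filters on dim probe sets, 2 other variance models, weights per array, a block for replicate number, sex as a covariate, other choices of probe set, a call at 0.01 and omitting every array in turn; male mice alone and the count of synthesis enzymes were added after seeing the data.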

Additional observations from a re-analysis of the deposited data

Results flagged for a closer look

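Each gene's values were searched for a single array far from the others of its group, in 62 groups of values; chance gives about 1 in 20, and 7 were found. Inactivated replicate 1 stood below the others for Insig1 (6.95, others 7.61 to 7.88) and Stard4 (7.81, others 8.30 to 8.48). Inactivated replicate 2 stood below the others for Apoe (10.03, others 10.61 to 10.80) and Abca1 (8.60, others 9.31 to 9.50), and above them for the dim Lcat (4.13, others 4.05 to 4.06). Control replicate 1, the only female control, stood below the others for Mvk (7.18, others 7.33 to 7.36) and Tm7sf2 (6.70, others 6.91 to 6.96). No member's difference between the groups itself differed between the sexes (limma interaction, lowest adjusted p = 0.881; 2 members with an unadjusted p under 0.05, Insig1 and Sult2b1), with 1 female control behind that test.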

How the results depend on the processing

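The main counts were 14 genes higher, 5 lower and 12 synthesis enzymes higher. The 31 differences were recomputed under 23 settings, which gave 711 values: 659 kept direction and side of the threshold, 27 were no longer called, 10 were newly called and 15 changed sign. Of the 19 called genes 13 kept their call in every setting; the others were Ebp, Abca1, Dhcr7, Cyp51, Sc5d and Hsd17b7. Leaving out 1 array gave 13 to 18 genes higher, 3 to 5 lower (3 without control replicate 3 or control replicate 4, which lose Abca1 and Dhcr7) and 11 to 14 synthesis enzymes higher. At an adjusted p of 0.01, 3 genes were lower, and in male mice alone, 2 against 3 arrays, 10 were higher, 3 lower and 8 synthesis enzymes higher. With the replicate number as a block (replicate block), which drops inactivated replicate 5 from the comparison, 13 were higher and 5 lower, and Ebp was the 1 call lost. Among male mice the sign changed for Hmgcs1 (-0.038), Tm7sf2 (-0.055), Insig1 (-0.24) and Stard4 (-0.058), none of them called. Hmgcs1 was -0.048 under quantile normalisation. Sc5d was -0.072 as the mean of its probe sets, which differ in direction. Npc2 was 0.040 with array medians subtracted, 0.035 with the block, 0.023 with sex in the model, 0.023 as a mean of probe sets and -0.063 to 0.051 with 1 array left out; Nr1h3 was -0.078 to 0.018 with 1 array left out. Of the values no longer called, the cause was not tested. The largest shift of all genes under another scaling was a median of 0.07 with array medians subtracted, against 0.03 as deposited. Dim genes such as Lcat and Nr1h3 are limited by signal close to background.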

Other observations

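Enzymes that make or break down oxysterols, the ligands of the liver X receptors, moved in different directions; apart from Cyp7b1 and Cyp39a1 they are named here after their values were seen. Ch25h, which makes an oxysterol, rose by 0.70 ± 0.18 (adjusted p = 0.0154, limma) but was dim, from 3.59 to 4.29. Cyp27a1, a mitochondrial sterol hydroxylase, fell by 1.15 ± 0.18 (adjusted p = 0.00102), from 7.66 to 6.52. The proteases that release SREBPs from the Golgi membrane were both lower: Mbtps1 fell by 0.65 ± 0.09 (adjusted p = 0.000589) and Mbtps2 by 0.25 ± 0.07 (adjusted p = 0.0170). Also named after their values were seen, the lysosomal lipase Lipa, which frees cholesterol from its esters, fell by 0.69 ± 0.15 (adjusted p = 0.00693), and the lipoprotein receptor Vldlr rose by 0.65 ± 0.17 (adjusted p = 0.0152), with overlap of the groups.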
